A study of Mus musculus with 8 samples.

Results

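The 9 genes that encode the endocannabinoid receptors (Cnr1 and Cnr2) and the enzymes that make or break down their ligands (Dagla, Daglb, Mgll, Abhd6, Abhd12, Napepld and Faah) were read by symbol from a whole-brain RNA-seq table of 24343 genes. All 9 were found, as 13 of the 34535 RefSeq transcripts listed. The brains came from 3 C57BL/6NCrl mice aged 56-62 days, which carried no labelled treatment or genetic change and formed a single condition. Mouse 1 and mouse 2 gave 3 libraries each and mouse 3 gave 2, and neither the meaning of a library's number nor the sex of an animal is in the labels. Each level is the FPKM of a gene (its sequenced fragments scaled to transcript length and to library size, and so a level per length) summed over its transcripts, averaged over the libraries of a mouse and then over the mice, with the SD over mice (n = 3).

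Endocannabinoids are lipid messengers that are made on demand from membrane lipids. In the textbook circuit, 2-arachidonoylglycerol (2-AG) is made in the postsynaptic neuron by a diacylglycerol lipase, crosses the synapse backwards, acts on the presynaptic CB1 receptor and is hydrolysed by monoacylglycerol lipase, with smaller parts for ABHD6 and ABHD12. Anandamide, the other main endocannabinoid, is released from N-acyl phosphatidylethanolamines by NAPE-PLD and hydrolysed by fatty acid amide hydrolase (FAAH). CB1 is a receptor of neurons above all, whereas CB2 is known from immune cells.

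The labelled tissue was checked against cell type markers. The summed level of 3 neuronal markers (Snap25, Rbfox3 and Syt1) lay between 1152 and 1466 FPKM over the libraries, and 4 pituitary hormone genes summed to at most 1.52 FPKM. The depth per library, taken as coverage times length over all transcripts, ranged from 1.31 to 2.02 gigabases.

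The positions given here are on mm10, as deposited, and all 9 genes are protein-coding in GENCODE vM21. Cnr1 lies at chr4:33924632-33948831 on the plus strand, and its coding sequence of 473 codons begins in the last of the 2 exons of the annotated transcript. Cnr2 lies on the same chromosome at chr4:135895189-135920219, also on the plus strand, and is listed with 2 transcripts that start at different sites but share a coding sequence of 347 codons. Mgll spans chr6:88724412-88828360 on the plus strand and is listed with 4 transcripts from 2 start sites. The other 6 genes have 1 transcript each, Dagla at chr19:10245265-10304877 on the minus strand, Daglb at chr5:143464493-143504442 on the plus strand, Abhd6 at chr14:8002902-8056555 on the plus strand, Abhd12 at chr2:150832515-150904731 on the minus strand, Napepld at chr5:21662903-21701345 on the minus strand and Faah at chr4:115996656-116017902 on the minus strand.

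RefSeq promoter windows (GRCm38.p6) were at hand for 7 of the 9 genes, as 12 windows, and Dagla and Abhd12 had no entry. The 250 bases before the start site are shown for Cnr1 and Cnr2, the receptors, whose levels lay far apart, and for the first start site of Mgll, the gene whose transcripts divide between start sites. Each runs 5′ to 3′ along the plus strand, and capitals mark GC boxes (GGGCGG or its reverse complement CCGCCC).
Cnr1, chr4:33924014-33924263: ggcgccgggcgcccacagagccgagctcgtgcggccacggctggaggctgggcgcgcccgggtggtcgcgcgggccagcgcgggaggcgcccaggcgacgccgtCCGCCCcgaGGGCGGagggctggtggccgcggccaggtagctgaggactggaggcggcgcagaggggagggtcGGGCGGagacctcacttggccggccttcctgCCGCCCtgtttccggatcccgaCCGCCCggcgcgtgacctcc
Cnr2 first start, chr4:135894939-135895188: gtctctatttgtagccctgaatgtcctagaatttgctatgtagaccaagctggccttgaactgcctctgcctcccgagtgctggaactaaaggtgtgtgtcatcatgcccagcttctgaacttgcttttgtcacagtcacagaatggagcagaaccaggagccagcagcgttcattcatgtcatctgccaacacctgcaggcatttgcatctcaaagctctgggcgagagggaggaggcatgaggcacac
Cnr2 second start, chr4:135911430-135911679: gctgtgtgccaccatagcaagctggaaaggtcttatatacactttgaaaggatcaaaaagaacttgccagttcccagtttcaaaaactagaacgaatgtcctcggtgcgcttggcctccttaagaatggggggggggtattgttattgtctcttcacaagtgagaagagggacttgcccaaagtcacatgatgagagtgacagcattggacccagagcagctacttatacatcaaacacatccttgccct
Mgll first start, chr6:88724162-88724411: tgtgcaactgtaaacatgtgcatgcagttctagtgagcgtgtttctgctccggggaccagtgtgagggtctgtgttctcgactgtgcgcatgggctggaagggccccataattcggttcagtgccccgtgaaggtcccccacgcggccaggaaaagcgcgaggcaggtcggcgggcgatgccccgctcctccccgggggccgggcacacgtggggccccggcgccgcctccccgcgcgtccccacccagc

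Cnr1 has 3 windows. The window shown held 79.2% G and C, 36 CpG dinucleotides and 5 GC boxes, and its start site lies 368 bases before the start of the deposited transcript. The window whose start site is nearest to the deposited start, at 12 bases, held 68.8% G and C, 28 CpG dinucleotides and no GC box, and the third held 49.2%, 5 CpG dinucleotides and no GC box. The Cnr2 windows held 51.6% and 46.4% G and C, 3 CpG dinucleotides each and no GC box, and the first Mgll window held 68.0%, 23 CpG dinucleotides and no GC box. The window of the second Mgll start, which lies within the gene and is not printed, held 74.8%, 40 CpG dinucleotides and 1 GC box. The median over 32851 mouse windows was 52.4% G and C with 6 CpG dinucleotides, and 32.7% of them held a GC box. Of the 12 windows of these genes, 4 held a GC box and 0 held TATAAA or its reverse complement TTTATA, a motif found in 12.4% of all windows. These matches describe the letters only. The start sites of the Cnr2 and Mgll windows coincide with those of the deposited transcripts.

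The 9 genes covered a wide range of levels. In order of mean level they were Abhd12, Mgll, Cnr1, Abhd6, Dagla, Faah, Daglb, Napepld and Cnr2. Abhd12 ranked 468 among 24343 genes and Mgll ranked 1516, whereas Napepld ranked 9413 and Cnr2 16106. Of the 36 pairs among the genes, 34 were ordered alike in all 8 libraries, and of the 8 pairs of neighbours in the order, 6 were. The exceptions were Mgll and Cnr1, which were reversed in library 1 of mouse 2, and Dagla and Faah, which were reversed in both libraries of mouse 3.

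**Figure D1:**
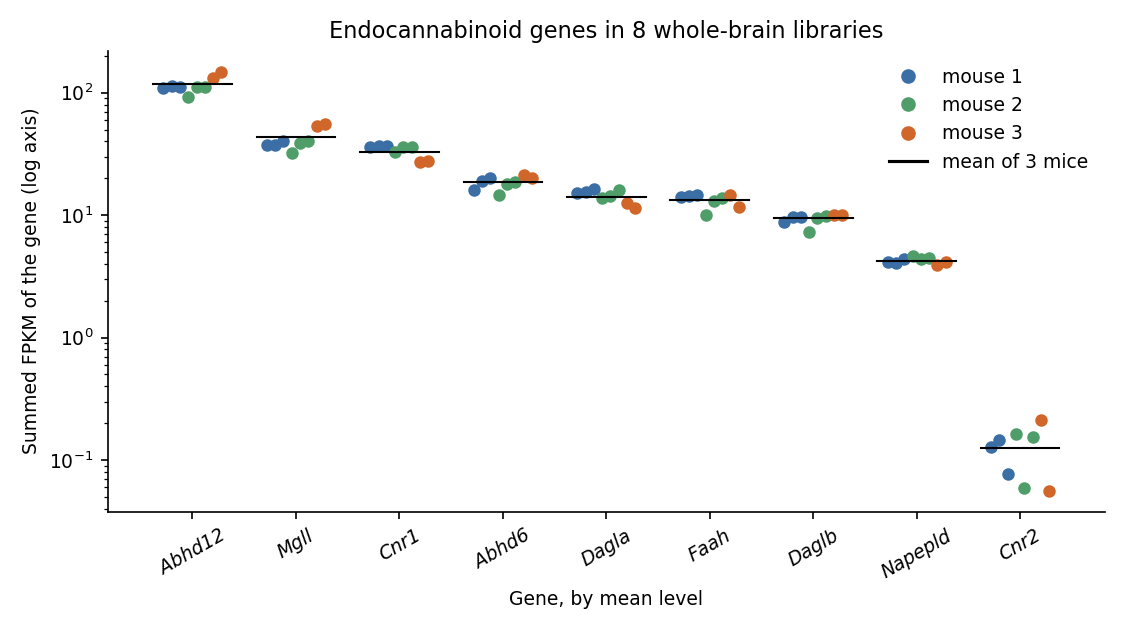
Summed FPKM of the 9 genes (log axis) in each library, coloured by mouse, with a line at the mean of the 3 mice. Abhd12 is the highest in all 8 libraries, Cnr2 reaches at most 0.211 FPKM in any of them, and the orange points of mouse 3 sit below all others for Cnr1 and Dagla and above all others for Abhd12, Mgll and Daglb.

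Cnr1, which encodes the CB1 receptor, was among the higher-expressed genes of the brain. It measured 35.7, 36.6 and 36.7 FPKM in mouse 1, 33.0, 36.1 and 36.3 FPKM in mouse 2, and 27.3 and 27.8 FPKM in mouse 3. The mean was 33.0 ± 4.75 FPKM (SD, n = 3), above 91.7% of all genes. Mouse 3 was below the other mice, without overlap. The highest upper bound that the authors' estimation gave for mouse 3 was 29.02 FPKM, and the lowest lower bound in mice 1 and 2 was 31.6 FPKM. Libraries of the same mouse differed little, with coefficients of variation from 1.38% to 5.25%.

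Cnr2, which encodes the CB2 receptor, was measured at 0.129, 0.146 and 0.0769 FPKM in mouse 1, at 0.163, 0.0594 and 0.155 FPKM in mouse 2, and at 0.211 and 0.0563 FPKM in mouse 3. The highest and the lowest library both belonged to mouse 3, and the groups overlapped fully. The mean was 0.126 ± 0.00827 FPKM (SD, n = 3). This SD is smaller than the spread within the mice, where the coefficient of variation ran from 30.7% to 81.9%. Between 403 and 1134 bases per library were read on the Cnr2 transcripts, against 324065 to 524600 on Cnr1, so differences between libraries were not resolvable at this depth. Averaged over mice, Cnr1 was 261-fold higher than Cnr2, with single libraries from 129-fold to 608-fold.

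The 4 microglial markers were present in every library at means of 11.3 (Cx3cr1), 14.3 (P2ry12), 6.20 (Tmem119) and 16.9 FPKM (Csf1r). Of the B cell markers, 3 were near 0, at means of 0.202 (Cd79a), 0.199 (Cd79b) and 0.0737 FPKM (Ms4a1), and each of them was listed at 0 in 1 library. The cells that the Cnr2 reads came from were not tested.

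The estimation assigned nearly all of Cnr2 to 1 transcript in each library, but not to the same one. NM_001305278, from the second start site, held nearly the whole gene in 6 libraries. NM_009924, from the first start site, held it in library 3 of mouse 1 and library 1 of mouse 2. The deposited bounds of the leading transcript reached down to 0 in library 2 of mouse 2 and library 2 of mouse 3.

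The diacylglycerol lipases that make 2-AG were both expressed at an intermediate level. Dagla, the isoform known for synaptic 2-AG in the adult brain, measured 15.1, 15.4 and 16.3 FPKM in mouse 1, 13.9, 14.4 and 16.0 FPKM in mouse 2, and 12.5 and 11.5 FPKM in mouse 3. Its mean was 14.1 ± 1.89 FPKM (SD, n = 3), and mouse 3 lay below both other mice without overlap. The deposited bounds of mouse 3 (up to 13.4 FPKM) and of the other libraries (down to 12.9 FPKM) did overlap. Daglb, the related lipase known from macrophages and microglia, measured 8.84, 9.58 and 9.64 FPKM in mouse 1, 7.35, 9.40 and 9.91 FPKM in mouse 2, and 10.1 and 10.1 FPKM in mouse 3. Its mean was 9.44 ± 0.592 FPKM (SD, n = 3), with mouse 3 above the other libraries by less than the width of the bounds. Dagla exceeded Daglb in all 8 libraries, by 1.67-fold in mouse 1, 1.66-fold in mouse 2 and 1.19-fold in mouse 3.

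Summed over genes, transcripts of the 2-AG hydrolases were far more abundant than those of the lipases that make 2-AG. The summed level of Mgll, Abhd6 and Abhd12 was 7.73 ± 1.75 times that of Dagla and Daglb (SD, n = 3), with libraries from 6.52 to 10.4 times. Both libraries of mouse 3 lay above all others in this ratio, but how often other ratios separate in this way was not computed. Most of the hydrolase sum was Abhd12, and Abhd6 alone exceeded Dagla by 1.33-fold. Abhd12, which encodes a membrane serine hydrolase that also acts on lysophosphatidylserine, was the highest. It measured 109, 113 and 111 FPKM in mouse 1, 91.5, 112 and 110.3 FPKM in mouse 2, and 131 and 148 FPKM in mouse 3. Its mean was 118 ± 18.6 FPKM (SD, n = 3), above 98.1% of all genes, with mouse 3 above every other library.

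Mgll encodes monoacylglycerol lipase, the hydrolase known to clear most 2-AG in the brain. It measured 37.2, 37.2 and 40.5 FPKM in mouse 1, 32.3, 38.5 and 40.6 FPKM in mouse 2, and 53.1 and 55.7 FPKM in mouse 3, with a mean of 43.3 ± 9.65 FPKM (SD, n = 3). Mouse 3 again lay above the others without overlap, and the coefficient of variation between mice, 22.3%, was the largest of the 9 genes. Abhd6, a hydrolase of the inner face of the membrane, measured 15.9, 18.9 and 20.1 FPKM in mouse 1, 14.7, 17.8 and 18.7 FPKM in mouse 2, and 21.4 and 20.1 FPKM in mouse 3. Its mean was 18.7 ± 1.88 FPKM (SD, n = 3), and the mice overlapped.

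Of the summed FPKM of these 3 hydrolases, Abhd12 made up 65.7 ± 0.677%, Mgll 23.9 ± 1.33% and Abhd6 10.4 ± 0.652% (SD, n = 3). The division varied little, with Abhd12 between 63.7% and 67.2% and Mgll between 22.0% and 25.9% in single libraries. These are shares of transcripts per length and not of enzyme or activity.

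The level of Mgll was divided about evenly between its start sites. The first start site, at position 88724412, carried 55.5 ± 3.09% of the gene (SD, n = 3), nearly all of it as NM_011844 (22.8 ± 5.68 FPKM). The second, at position 88724704, carried the remainder as NM_001166251 (19.2 ± 4.70 FPKM). The 2 transcripts differ in what they encode. In GENCODE the reading frame of NM_001166251 starts upstream, at position 88725151 in place of 88725721, and has 319 codons against 303. NM_001166249, a form with 258 codons, held between 0.00277% and 7.26% of the gene, and NM_001166250, a short form with 116 codons, had 0.14 FPKM in library 3 of mouse 2 and practically 0 in the other libraries.

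The share of the first start site was 50.3%, 59.4% and 66.7% in mouse 1, 52.1%, 50.1% and 55.9% in mouse 2, and 55.6% and 54.1% in mouse 3. Mouse 1 alone spanned the range of the other mice apart from library 2 of mouse 2. Both main transcripts were higher in mouse 3. NM_011844 stood at 28.9 and 29.5 FPKM there against 16.8 to 24.4 FPKM in the other libraries, and NM_001166251 at 23.6 and 25.6 FPKM against 13.5 to 19.2 FPKM.

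**Figure D2:**
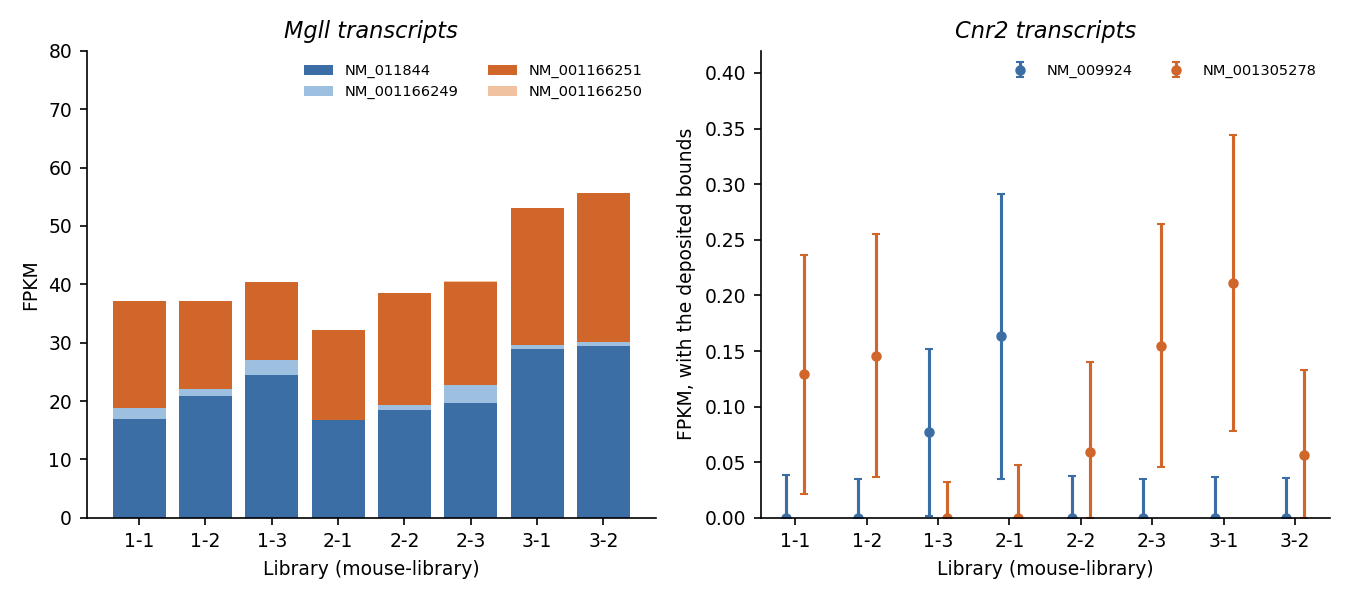
Left, FPKM of the 4 Mgll transcripts stacked for each library (first start site in blue, second in orange); right, FPKM of the 2 Cnr2 transcripts with the deposited lower and upper bounds. Both main Mgll transcripts contribute in all 8 libraries and are highest in mouse 3, whereas Cnr2 is assigned to NM_009924 in libraries 1-3 and 2-1 and to NM_001305278 in the other 6.

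The anandamide enzymes were lower than those of 2-AG breakdown. Napepld, which encodes NAPE-PLD, measured 4.15, 4.07 and 4.41 FPKM in mouse 1, 4.65, 4.35 and 4.47 FPKM in mouse 2, and 3.94 and 4.11 FPKM in mouse 3. Its mean was 4.24 ± 0.236 FPKM (SD, n = 3), the mice overlapped, and the coefficient of variation between mice, 5.57%, was the smallest of the 9 genes. Faah measured 14.1, 14.4 and 14.7 FPKM in mouse 1, 10.02, 13.0 and 13.7 FPKM in mouse 2, and 14.6 and 11.6 FPKM in mouse 3. Its mean was 13.2 ± 1.09 FPKM (SD, n = 3). The libraries of mouse 2 and of mouse 3 each differed by 16.0% (coefficient of variation) among themselves, more than the 8.24% between mice.

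Ratios between genes compared the arms of the pathway. The ratio of a mouse divides its mean levels, the average over mice was taken on the log2 scale, and ranges are of single libraries. Mgll exceeded Faah, its counterpart for anandamide, by 3.22-fold on average, and by 2.66-fold, 3.03-fold and 4.15-fold in mice 1, 2 and 3. Mgll exceeded Dagla by 2.45-fold, 2.52-fold and 4.53-fold. Faah exceeded Napepld by 3.42-fold, 2.72-fold and 3.26-fold, and its libraries overlapped between mice (2.16-fold to 3.53-fold in mice 1 and 2, 2.83-fold to 3.70-fold in mouse 3). Abhd12 exceeded Abhd6 by 6.06-fold, 6.13-fold and 6.72-fold, a ratio with overlapping mice. Each of these orders held in all 8 libraries.

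Mgll and Cnr1, a pair added after the values were seen, were near equal in mice 1 and 2, with a ratio of 0.978 to 1.12 in single libraries, and differed by 1.94-fold and 2.00-fold in the libraries of mouse 3. With 3 animals the smallest p of an exact two-sided sign-flip test is 0.25, so that no ratio was tested.

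**Figure D3:**
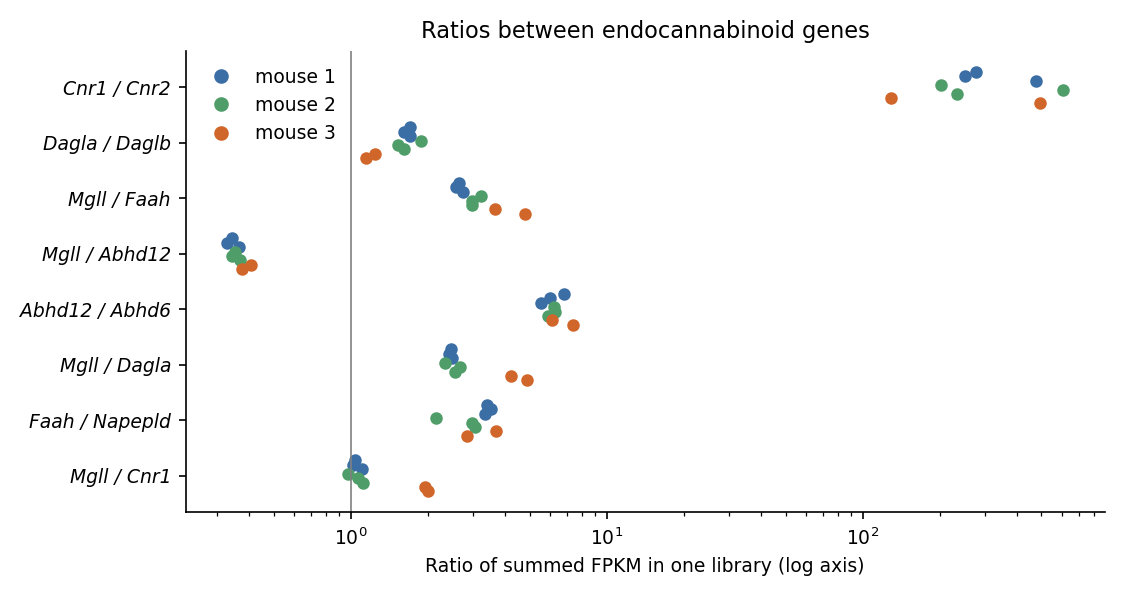
Ratio of the summed FPKM of 2 genes in each library (log axis), coloured by mouse, with a grey line at 1. Mouse 3 sits apart from mice 1 and 2 for Dagla to Daglb, Mgll to Faah, Mgll to Abhd12, Mgll to Dagla and Mgll to Cnr1, and overlaps them for the others. All of these but the first contain Mgll, so they are not separate results. The share of other gene pairs that sit apart was not computed. Of single tested genes, 26.5% were above all other libraries in mouse 3 and 21.7% below.

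To see which of these levels differed between individual mice by more than their libraries did, the mice were compared with the moderated F-test of limma, on log2(FPKM + 1), over the 13001 genes whose mean reached 1 FPKM. All mice had the same condition, so the test describes these 3 animals. Of the 9 genes, 8 were tested, Cnr2 being below the minimum. Mgll, Cnr1 and Dagla passed at an adjusted p under 0.05, which is 3 of 8, where 25.5% of all tested genes passed. Mgll was higher in mouse 3, where 14.1% of tested genes were called with mouse 3 higher, and Cnr1 and Dagla were lower, where 11.3% were called with mouse 3 lower.

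Mgll differed on the log2 scale by 0.50 ± 0.11 (SE) between mouse 3 and mouse 1 and by 0.55 ± 0.11 between mouse 3 and mouse 2 (adjusted p = 0.0178). Cnr1 differed by -0.39 ± 0.08 and -0.34 ± 0.08 (adjusted p = 0.0206), and Dagla by -0.35 ± 0.09 and -0.28 ± 0.09 (adjusted p = 0.0466). In mouse 3 the mean FPKM was thus 1.44 times that of the other mice for Mgll, 0.772 times for Cnr1 and 0.790 times for Dagla. Abhd12 differed by 0.32 ± 0.11 and 0.42 ± 0.11 and just missed the threshold (adjusted p = 0.0502). Faah (adjusted p = 0.356), Abhd6 (0.273), Napepld (0.404) and Daglb (0.511) did not pass. Mice 1 and 2 differed from each other by -0.23 ± 0.12 for Faah and by less than 0.10 for the other tested genes.

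By the libraries' own values, mouse 3 was above all other libraries for 3 of the 8 genes (Mgll, Abhd12 and Daglb), against 26.5% of all tested genes, and below all others for 2 (Cnr1 and Dagla), against 21.7%. The median absolute difference of mouse 3 was 0.27 on the log2 scale over the 8 genes and 0.24 over all tested genes.

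Without library 2 of mouse 3, that mouse is 1 library, assumed to vary like those of the other mice, and 0 of the 8 genes passed in limma (2 had an unadjusted p under 0.05), as 126 of all genes did in place of 3310. The difference of mouse 3 from the mean of the other mice was then -0.38 for Cnr1 (-0.36 with all libraries, adjusted p = 0.0978 without the library), 0.49 for Mgll (0.52, adjusted p = 0.139) and -0.25 for Dagla (-0.31, adjusted p = 0.231). Leaving out library 1 of mouse 3 in its place also leaves 1 library, but calls over all genes were not lost in this way. The differences of mouse 3 were then -0.35 for Cnr1, 0.55 for Mgll and -0.38 for Dagla. Without library 2 or library 3 of mouse 1, 1 of the 8 genes passed, which was Mgll. Dagla passed in 1 of the 8 fits that left out a library, the one without library 1 of mouse 2, where Abhd12 passed too (adjusted p = 0.0337). Cnr1 passed in 5 of them and Mgll in 7. Among mice 1 and 2 alone 0 of the 8 genes passed, and 0 had an unadjusted p under 0.05 in limma.

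Mouse 3 also differed in the composition of its values. Its libraries summed to 384885 and 409889 FPKM, against 295541 to 345572 in the others, and the fifth of genes with the shortest transcripts deviated by 0.20 and 0.42 on the log2 scale there, with -0.06 and -0.24 for the fifth with the longest. In the other libraries these deviations ran from -0.34 to -0.02 and from 0.02 to 0.07, the -0.34 being in library 1 of mouse 2. The transcripts of Cnr1 (5807 bases) and Dagla (5634 bases) are the longest of the 9 genes. When a trend of the deviations on length was removed, Cnr1 (-0.19, adjusted p = 0.132) and Dagla (-0.15, adjusted p = 0.183) no longer passed, and Mgll did (0.58, adjusted p = 0.00666). On TPM (the same values scaled to an equal sum in each library), the median of all tested genes moved to -0.26 in mouse 3. On that scale Cnr1 (-0.67, adjusted p = 0.0044) and Dagla (-0.62, adjusted p = 0.00604) passed with larger differences than on FPKM, whereas Mgll (0.23, adjusted p = 0.133) did not pass. Relative to the median gene, Cnr1 stood at -0.41, Dagla at -0.37 and Mgll at 0.49. On TPM 42.3% of all tested genes passed, against 25.5% on FPKM. Most calls on TPM were lower in mouse 3, and 718 of 5493 were higher, against 1835 of 3310 on FPKM. Lower calls such as those of Cnr1 and Dagla were thus common on that scale. The share of these patterns in the differences was not tested.

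**Figure D4:**
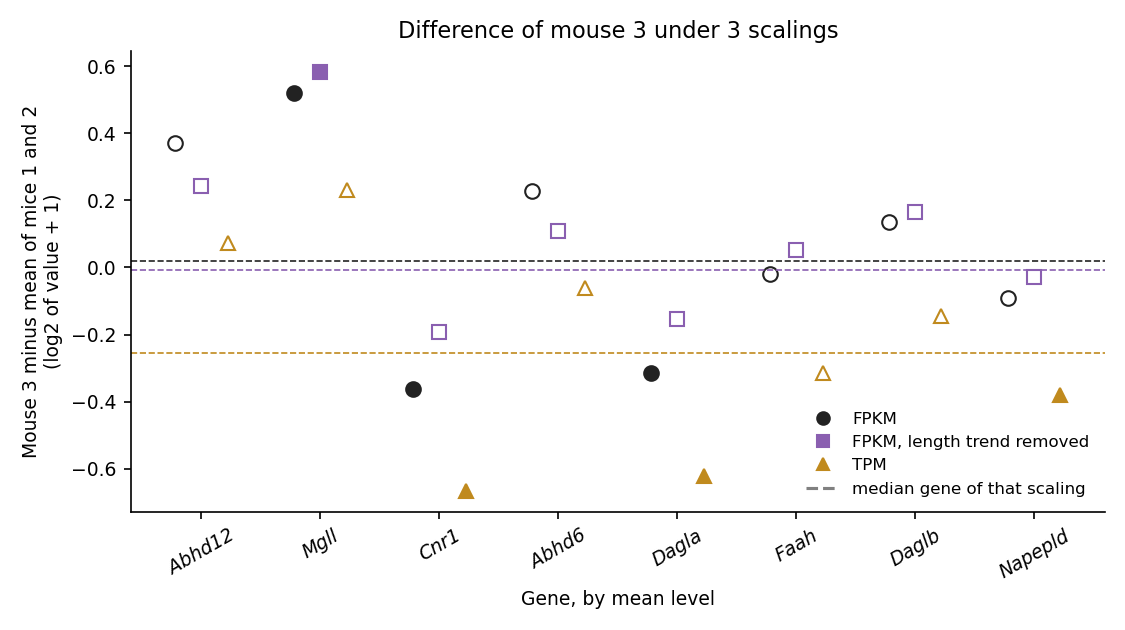
Difference on the log2 scale between mouse 3 and the mean of mice 1 and 2 for the 8 tested genes, on FPKM (circles), on FPKM with the length trend removed (squares) and on TPM (triangles); filled symbols have an adjusted p under 0.05 in limma and dashed lines mark the median of all tested genes. Cnr1 and Dagla lie below and Mgll above the median gene under each scaling, but 0 of the 3 is filled under all 3 scalings.

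Cell type markers also differed in the same animal, in which 14.1% of all tested genes were called higher and 11.3% lower. All 4 astrocyte markers were called higher in mouse 3 (summed level 422 to 439 FPKM, against 294 to 309 in the other libraries), as were 2 of 3 markers of mature oligodendrocytes (966 to 1229.7 against 684 to 792 FPKM). Of the 3 neuronal markers, 2 were called lower (summed level 1152 to 1281 against 1352 to 1466 FPKM). Sums of other lists were also higher in mouse 3 without overlap, for endothelium (34.0 to 36.5 against 20.4 to 28.2 FPKM, 0 of 3 markers called), red blood cells (801 to 897 against 530 to 659 FPKM, 1 of 5 called), microglia (51.5 to 52.5 against 44.2 to 49.9 FPKM, 1 of 4 called) and the 3 named B cell markers (0.730 to 0.740 against 0.232 to 0.414 FPKM, not tested). Choroid plexus sums overlapped (435 to 566 against 322 to 552 FPKM), with 1 of 5 markers called, lower in mouse 3. Of all tested genes taken singly, 26.5% were above all other libraries in mouse 3 and 21.7% below. These marker sums and calls are on FPKM. The libraries of mouse 3 also had the highest FPKM summed over all genes (384885 and 409889, against 295541 to 345572). Marker sums were not scaled to those totals, so a higher sum need not be a higher share, least of all where the gap is small, as for microglia. None of the astrocyte, oligodendrocyte and neuronal markers was at 0 in any library. In bulk tissue fewer cells of a type and less RNA per cell cannot be told apart, and the part of these shifts in the differences of Mgll, Cnr1 and Dagla was not tested.

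The wider pathway was read from a list of 30 genes that act around these receptors and enzymes. Of these, 21 were tested and 9 lay under 1 FPKM, with means from 0.00774 to 0.928 FPKM. In the same test 9 of the 21 (42.9%) passed, where 25.5% of all tested genes did, 4 with mouse 3 higher (14.1% of all tested genes) and 5 with mouse 3 lower (11.3%). The list was chosen with earlier results of these data known, so its share cannot show an excess in the pathway. The median difference of mouse 3 was -0.00019 on the log2 scale over the list and 0.02 over all tested genes.

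Among the alternative routes of N-acylethanolamine synthesis, Gde1, a glycerophosphodiesterase, was the highest at 102 ± 7.16 FPKM (SD, n = 3) and did not pass (adjusted p = 0.468). Abhd4, a lipase that acts on N-acyl phosphatidylethanolamines, measured 29.9 ± 8.39 FPKM and was higher in mouse 3, with 39.6 FPKM against 25.9 and 24.3 FPKM in mice 1 and 2 (adjusted p = 0.0128). Both thus exceeded Napepld, by their mean levels. Naaa, an amidase of lysosomes, was the highest of the genes of breakdown and oxidation at 11.7 ± 2.29 FPKM (adjusted p = 0.0609).

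The fatty acid-binding proteins, which carry these lipids inside cells, were abundant. Fabp5, the highest, measured 73.7, 77.0 and 134 FPKM in mice 1, 2 and 3 (adjusted p = 0.00785), and Fabp7, known from astrocytes and radial glia, 57.6, 54.3 and 113 FPKM (adjusted p = 0.0161). Both were higher in mouse 3. The other receptors of these lipids were low, the highest being the nuclear receptor Pparg at 1.13 ± 0.337 FPKM (adjusted p = 0.105).

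Of the 10 tested genes for CB1-binding proteins, phospholipases C beta and Gi/o alpha subunits, 5 were called lower in mouse 3 and 1 higher. The other 4 (Cnrip1, Plcb3, Gnai1 and Gnai3) were not called. Of all tested genes, 11.3% were called lower and 14.1% higher. These roles hold all 5 lower calls of the pathway list, whereas Abhd4, Fabp5 and Fabp7, in other roles, were called higher. The count joins separate roles, so it cannot show an excess of lower calls. Gprasp1, a receptor-sorting protein that binds CB1, measured 102, 101 and 53.6 FPKM in mice 1, 2 and 3 (adjusted p = 0.00815), and Sgip1, which interferes with CB1 internalization, 31.2, 31.4 and 24.0 FPKM (adjusted p = 0.0249). Plcb1, the most abundant of the phospholipases C beta that can feed the diacylglycerol lipases, measured 33.2, 34.6 and 23.1 FPKM (adjusted p = 0.0116), and Plcb4 measured 23.0, 24.2 and 18.6 FPKM (adjusted p = 0.0228). Of the G protein subunits that CB1 couples to, Gnao1 was the highest at 152 ± 25.2 FPKM and lower in mouse 3 (adjusted p = 0.0201), whereas Gnai2 was higher there, at 79.0 FPKM against 61.4 and 58.5 FPKM (adjusted p = 0.0241).

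Of the 9 pathway genes that passed, 6 also passed on TPM and with the length trend removed (Abhd4, Fabp5, Gprasp1, Plcb1, Plcb4 and Gnao1). Keeping a call was common among all genes. Of the 3310 called, 2200 were also called on TPM and 1919 with the length trend removed, each taken singly. Fabp7 and Sgip1 were lost with the length trend removed (adjusted p = 0.18 and 0.119) and Gnai2 on TPM (adjusted p = 0.475). Without library 2 of mouse 3, which leaves that mouse 1 library assumed to vary like the others, Gprasp1 alone passed (-0.66 against -0.93 with all libraries, adjusted p = 0.0434). All 9 kept their direction, with differences from 0.608 times (Fabp7) to 1.00 times (Gnai2) those with all libraries. These genes were chosen by their call with all libraries, and the 2 fits share every other library. The kept direction is therefore no separate support.

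**Figure D5:**
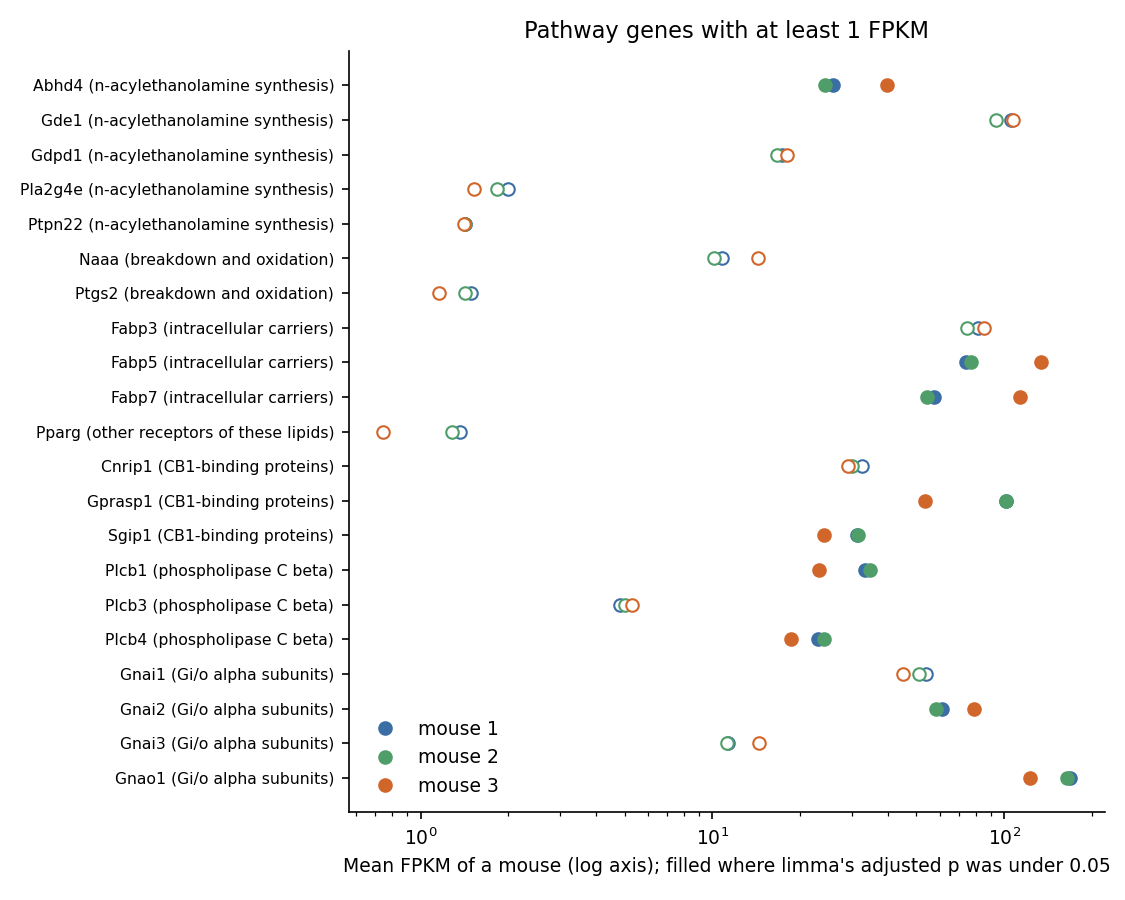
Mean FPKM (log axis) in each mouse of the 21 pathway genes that were tested, with filled points where the adjusted p in limma was under 0.05. The points of mouse 3 lie to the right of the others for Abhd4, Fabp5, Fabp7 and Gnai2 and to the left for Gprasp1, Sgip1, Plcb1, Plcb4 and Gnao1.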

How the data were processed

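Bulk RNA-seq of whole brains was analysed as deposited. The authors deposited FPKM values with lower and upper confidence bounds, and coverage (a signal, the read depth per base, not scaled to library size), for each RefSeq transcript and library. The submitters' processing notes name TopHat, Cufflinks and the build mm10, without versions. Read length and strand setting are not given in the sources used here, so the number of reads behind a value is unknown and no counting interval was computed. The estimation divides reads between transcripts of a gene, which makes the value of a single transcript less certain than the sum. Estimation failed for 8 values of 2 genes, none among the genes described.

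FPKM were summed per gene. The members and gene lists were chosen with earlier results of these data known. The pathway list holds genes of N-acylethanolamine synthesis, breakdown and oxidation, carriers, other receptors, CB1-binding proteins, phospholipases C beta and Gi/o alpha subunits; of it, the highest gene of each role and every gene that passed the test are named. Mice were compared with limma 3.58.1 (R 4.3.3) on log2(FPKM + 1), a scale that understates changes of low genes, with mouse as the factor, for genes whose mean reached 1 FPKM. P-values were adjusted over all of them (Benjamini-Hochberg), with a threshold of 0.05. Libraries of a mouse may be technical repeats, so the p-values measure only the spread between libraries. The limma step was tested on simulated data drawn with independent libraries and no length trend. That test therefore does not bear on libraries of a mouse that depend on each other, or on the length trend. The length trend was a lowess fit (fraction 0.3) of each library's log2 deviations on transcript length.

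Alternatives were another pseudocount, other minimum levels, TPM, median-ratio scaling, removal of the length trend, the highest transcript in place of the sum, a prior variance trend, a block for library number, and leaving out each library or, added after the data were seen, mouse 3 from the test. Same-numbered libraries of different mice correlated by 0.00 to 0.11 in their deviations, so the numbers were not taken to pair them. Protein sequences were not used here, and 1 of the B cell markers is not reported here.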

Additional observations from a re-analysis of the deposited data

Results flagged for a closer look

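Daglb stood at 7.35 FPKM in library 1 of mouse 2, the lowest of its 8 libraries, with the next at 8.84 FPKM. The gap was 54.4% of the whole range, above Dixon's critical value. This library also had the fewest bases read (1.31 gigabases) and the lowest summed FPKM (295541). It was the lowest library for Mgll, Abhd6, Abhd12 and Faah as well, without such a gap, and the highest for Napepld (4.65 FPKM). The part of its depth in these values was not tested. The Daglb level was 1 of 18 levels, ratios and shares examined in this way, and chance alone marks about 1 in 20.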

How the results depend on the processing

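The count of genes called between the mice was 3310. It was 5493 on TPM, between 126 and 3860 when single libraries were left out and 3 without mouse 3. Of the 8 endocannabinoid genes tested, 3 were called (25.5% of all tested genes), and 1 with the length trend removed (20.3%). With single libraries of mouse 1 or mouse 2 left out, 1 to 4 were called (12.6% to 29.7% of all tested genes). Without mouse 3, 0 were called (0 with an unadjusted p under 0.05 in limma). Of the pathway genes, 9 were called, 1 to 12 with single libraries left out and 0 without mouse 3. With a replicate block for library number, 2995 genes were called in limma (23.0% of all tested genes), of which 2524 were among the 3310. They included 3 endocannabinoid genes, with Abhd12 (adjusted p = 0.0423) gained and Dagla (adjusted p = 0.0953) lost. Of the 8 libraries, 5 correlated best with their own number. Deviations within a mouse sum to 0, so these matches are not separate, and their rate by chance was not computed. They cannot show whether the numbers pair the libraries.

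Differences of mouse 3 that were not called changed sign on TPM for Daglb (-0.15) and Abhd6 (-0.060), and for Faah with the length trend removed (0.051), with the replicate block (0.027) and with single libraries left out (-0.17 to 0.13). Dagla missed the threshold with a pseudocount of 0.1 (-0.34, adjusted p = 0.055), a minimum of 0.1 FPKM (-0.31, adjusted p = 0.058) and the highest transcript (-0.31, adjusted p = 0.0676), with a difference no smaller than the -0.31 reported. Abhd12 passed with median-ratio scaling (0.0277) and the prior variance trend (0.0444), where 30.0% and 26.9% of all tested genes passed. Napepld passed on TPM (-0.38, adjusted p = 0.0289), where 42.3% of all tested genes did. Relative to the median gene of that scale it stood at -0.12. With the highest transcript, log2 ratios of Mgll moved from 1.69 to 0.77 against Faah, from -1.46 to -2.38 against Abhd12, from 1.60 to 0.69 against Dagla and from 0.38 to -0.54 against Cnr1, since the highest transcript leaves out the other start site. The log2 ratio of Cnr1 to Cnr2 ran from 7.80 to 8.45 with single libraries left out. Neighbours in the order of levels were ordered alike in 6 to 7 of 8 pairs under all alternatives. Depth limits Cnr2 above all.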
